A study of Mus musculus with 12 samples.

Results

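The genes described here are 8 mouse genes of ADP-ribosylation, out of 42687 gene identifiers in a table of raw read counts. They were chosen by symbol, with earlier results of these data known. The 6 interferon-linked members are Parp9, Dtx3l, Parp14, Parp10, Parp11 and Parp12, and Parp1 and Parp2 were included as DNA-damage enzymes for contrast. All 8 passed the filter on low counts that left 13261 genes to test.

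The counts came from DC2.4, a mouse line of immortalised dendritic cells labelled wild type, in 4 groups of 3 libraries each. The first group received extracellular vesicles labelled ATEV at 15 µg/mL. The second received the same ATEV dose after pretreatment of the vesicles with Baseline-ZERO DNase, an enzyme that digests DNA, and is called DNase-ATEV here. The third received vesicles labelled NTEV at 30 µg/mL, so the vesicle dose of NTEV differed from that of ATEV, and the labels tie these doses to a stated amount of vesicle DNA. The fourth received PBS, the vehicle. The labels do not spell out ATEV or NTEV. All groups shared the cell line, the RPMI medium with serum and the culture in 12-well plates with harvest and reseeding the day after treatment. The procedure is described as repeated 3 times. It is unclear whether each culture was exposed 3 times in succession or the experiment was done 3 times. The number of exposures behind each comparison is therefore not known here. Whether each library is its own culture is not said either. The p-values therefore measure only the spread between these libraries, which may be technical.

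ADP-ribosyltransferases use NAD to attach ADP-ribose to proteins or nucleic acids. Parp1 and Parp2 build long poly(ADP-ribose) chains at DNA breaks and recruit repair factors, whereas Parp10, Parp11, Parp12 and Parp14 attach single units. Parp9 acts in a complex with Dtx3l, a ubiquitin ligase of the Deltex family. Many of the mono-ADP-ribosyltransferases are induced by interferon in immune cells, and they take part in antiviral and inflammatory responses.

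The libraries held 19392942 to 30383572 counts. Levels are given as CPM, counts relative to the library's total after TMM normalisation, and differences as log2 fold changes from edgeR's quasi-likelihood test with standard errors. A gene was called changed at a Benjamini-Hochberg adjusted p under 0.05 over all 13261 genes. On the first principal component the ATEV libraries lay between 9.33 and 31.1 and the DNase-ATEV libraries between -30.4 and 9.81. The NTEV libraries lay between -21.5 and 41.7 and the PBS libraries between -41.8 and -14.6, so DNase-ATEV and NTEV spread most widely there. On the second component the ATEV libraries spread most widely, from -2.03 to 48.31. The NTEV libraries lay there between -23.51 and 2.03, DNase-ATEV between -18.95 and 1.32 and PBS between -10.11 and 0.554. Of 13 dendritic cell markers, 7 were tested, and the summed level of the list was 698 to 827 CPM with ATEV, 654 to 791 CPM with DNase-ATEV, 598 to 726 CPM with NTEV and 557 to 627 CPM with PBS. The dendritic cell marker Clec9a was at 0 in all 12 libraries, where a count of 0 allows up to 0.0987 to 0.155 CPM. Flt3, Xcr1, Irf4, H2-Aa and H2-Ab1 of that list each stayed at or below 0.901 CPM in every library. Ptprc, on the same list, had 241.7 to 328.5 CPM. Macrophage markers, all 8 tested, summed to 4587 to 7446 CPM with ATEV, 3063 to 3389 CPM with DNase-ATEV, 4755 to 5423 CPM with NTEV and 3322 to 3862 CPM with PBS. Of 15 T cell markers, 3 were tested, and the summed level was 44.7 to 63.8 CPM with ATEV, 55.9 to 62.4 CPM with DNase-ATEV, 36.2 to 53.9 CPM with NTEV and 60.1 to 103 CPM with PBS. Cd3e, Cd8a, Trbc1 and Trbc2 of that list were at 0 in all libraries. From the same list, Cd28 had 26.6 to 94.6 CPM over the libraries, Lck 6.85 to 18.5 CPM and Cd5 0.639 to 3.63 CPM. B cell markers summed to at most 0.474 CPM and fibroblast markers to at most 4.88 CPM. The summed macrophage markers were higher in every ATEV and every NTEV library than in every PBS library. The summed dendritic cell markers were higher than in every PBS library in every ATEV and every DNase-ATEV library. Of the macrophage markers, Lyz2 had 2468 to 5413 CPM with ATEV and 1452 to 1885 CPM with PBS. Csf1r overlapped between those groups (504 to 610 and 492 to 626 CPM), and Mrc1 was lower with ATEV (0.474 to 0.669 and 1.36 to 2.54 CPM). In ATEV against PBS, 2 of the 8 macrophage markers were called higher and 1 lower. Of the 7 dendritic cell markers 3 were called higher, with Irf8 also on the interferon list below, and 1 of the 3 T cell markers lower. Their part in the results below was not tested. In RNA pooled from whole cultures, more cells expressing a gene and more RNA of it per cell cannot be told apart.

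In cells treated with ATEV, 5 of the 6 interferon-linked members were called higher than in PBS cells and Parp1 was called lower. The background was 4.74% of all genes called in either direction in that comparison, made up of 3.32% higher and 1.42% lower. Parp14 had the largest difference of the 8 members, at 3.64-fold, and the other interferon-linked members lay between 1.51-fold and 1.99-fold. Dtx3l did not pass the adjusted threshold and Parp2 was not called. Over the 6 interferon-linked members the median log2 fold change was 0.65, against 0.032 over all genes tested. Because the members were chosen with earlier results of these data known, these counts and medians are a description only. The ATEV libraries lay above every PBS library for all 6, a pattern that 16.3% of all genes showed, and below every PBS library for Parp1, which 16.8% showed. Each call other than that of Parp14 was lost in some or all of the fits that left out 1 library. Calls over all genes ranged from 169 to 849 in those fits, against 628 with all libraries. The number of members called was 4 without ATEV replicate 1, 1 without ATEV replicate 2, 3 without ATEV replicate 3, 3 without PBS replicate 1, 1 without PBS replicate 2 and 2 without PBS replicate 3.

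**Figure D1:**
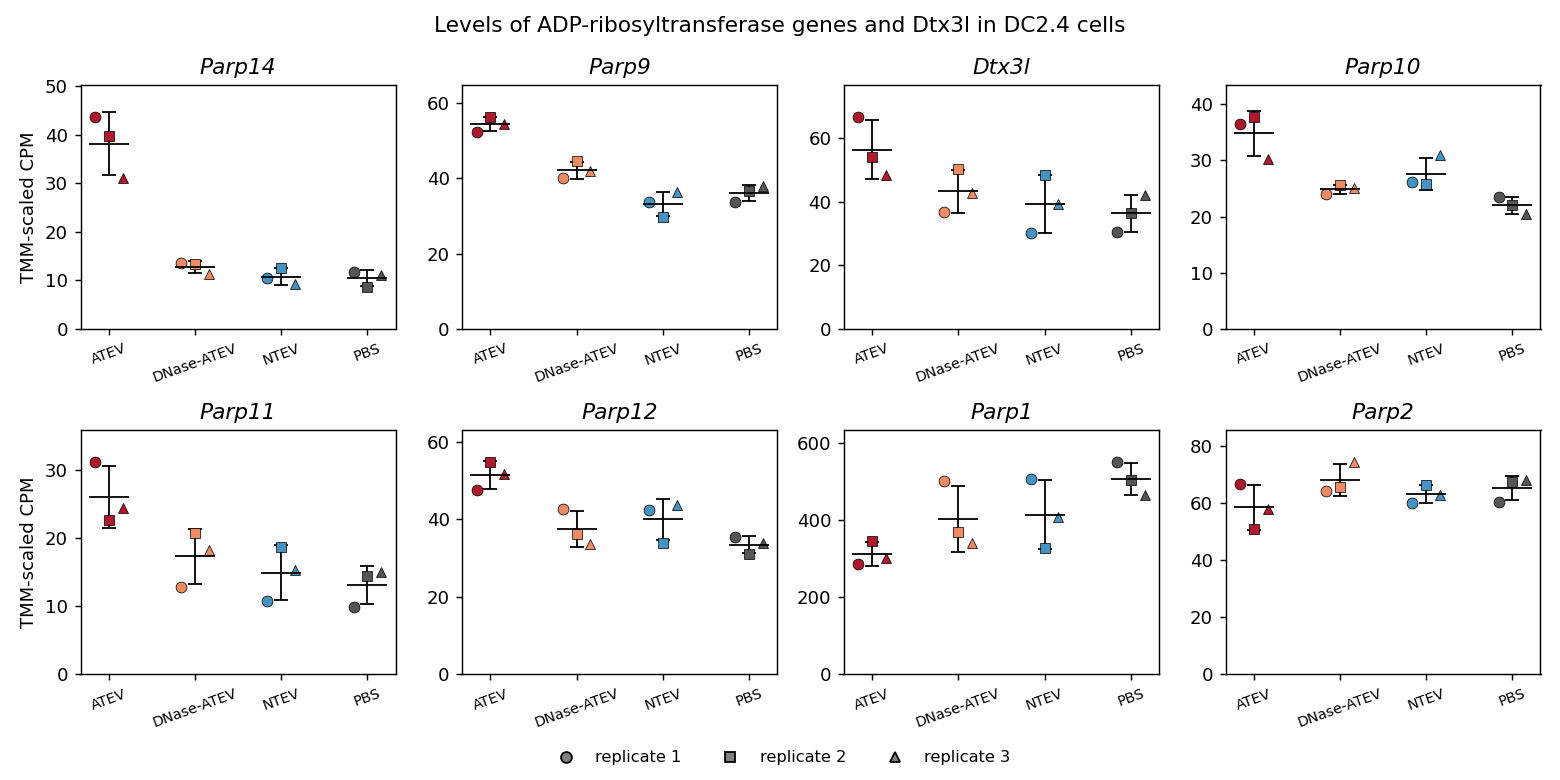
Level of each of the 8 members in every library (TMM-scaled CPM, vertical axes), with libraries of ATEV, DNase-ATEV, NTEV and PBS cells from left to right, points for libraries and bars for the group mean with its SD (n = 3). Parp14 sits between 31.1 and 43.7 CPM in the ATEV libraries and between 8.64 and 13.6 CPM in the other 9 libraries.

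Parp14 (ENSMUSG00000034422, mouse chromosome 16) encodes a large macrodomain-containing mono-ADP-ribosyltransferase known as a coactivator of STAT6 in interleukin-4 signalling. Its level was 43.7, 39.7 and 31.1 CPM in the 3 ATEV libraries, 13.6, 13.4 and 11.3 CPM in the DNase-ATEV libraries, 10.4, 12.7 and 9.30 CPM in the NTEV libraries and 11.7, 8.64 and 11.2 CPM in the PBS libraries. Every ATEV library was well above every library of the other groups, and the other groups overlapped each other. Against PBS the log2 fold change was 1.86 ± 0.18 (SE, n = 3 each, adjusted p = 9.56e-05), the 15th smallest p of all genes. Parp14 stayed called whichever ATEV or PBS library was removed (6 fits), with adjusted p between 0.000159 and 0.00133.

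Parp9 (ENSMUSG00000022906) and Dtx3l (ENSMUSG00000049502) lie head to head on chromosome 16, also the chromosome of Parp14. In the GENCODE M21 annotation of GRCm38 their starts are 681 bases apart, and 458 exonic bases belong to both genes on opposite strands. The libraries came from a stranded kit, but how strand was treated in counting is not known here, so the assignment of reads within those bases is uncertain. Parp9 had 52.4, 56.3 and 54.5 CPM in the ATEV libraries, 40.1, 44.6 and 41.8 CPM in the DNase-ATEV libraries, 33.6, 29.8 and 36.3 CPM in the NTEV libraries and 33.6, 36.7 and 38.0 CPM in the PBS libraries. The ATEV libraries stood above all others, the DNase-ATEV libraries came next, and NTEV and PBS libraries overlapped. The log2 fold change of Parp9 in ATEV cells against PBS cells was 0.59 ± 0.11 (adjusted p = 0.0104). It missed the threshold narrowly without ATEV replicate 2 (0.0520), PBS replicate 1 (0.0520) or PBS replicate 2 (0.0501).

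Dtx3l had 66.7, 54.2 and 48.4 CPM with ATEV, 36.7, 50.2 and 42.9 CPM with DNase-ATEV, 30.1, 48.3 and 39.2 CPM with NTEV and 30.6, 36.4 and 42.0 CPM with PBS. Its ATEV libraries were above all PBS libraries but overlapped those of DNase-ATEV. Against PBS its log2 fold change was 0.64 ± 0.19, with a 95% interval of 0.23 to 1.05 and an adjusted p of 0.0705, so it was not called. The size of the difference was close to that of its partner Parp9, and the libraries of Dtx3l varied more, with coefficients of variation of 16.6% in ATEV and 15.7% in PBS cells (for Parp9 3.62% in ATEV cells). Dtx3l was called by DESeq2 (adjusted p = 0.0266), without the filter on low counts (0.0149), in a fit of the ATEV and PBS groups alone (0.0338) and with a replicate block (0.0481). It was not called with relative log expression scaling (0.0670) or limma-voom (0.0750). None of the 6 fits that left out an ATEV or PBS library called it (adjusted p between 0.0739 and 0.238). The ratio of Parp9 to Dtx3l, each per kilobase of exon, was 1.16 ± 0.21 in ATEV cells, 1.16 ± 0.12 in DNase-ATEV cells, 1.04 ± 0.30 in NTEV cells and 1.18 ± 0.11 in PBS cells (SD, n = 3), and it lay between 0.725 and 1.32 in all 12 libraries.

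Promoter windows of 300 bases, 250 before and 50 from the gene start, were available from RefSeq (GRCm38.p6) for 5 of the 8 members: Dtx3l, Parp11, Parp12, Parp1 and Parp2, with 2 windows for Parp11. Both strands were searched for the core of the interferon-stimulated response element, a pair of GAAA runs with any 2 bases between, and for the core of the gamma-activated site (GAS), TTCNNNGAA. Of all 32851 windows of the same length, 3.44% held the interferon-response core, 8.3% the GAS core and 11.3% either. Only the upstream Parp11 window held a match, and it held both cores. The interferon-response match starts 44 bases before the gene start and the GAS match 37 bases before it, and they share 3 bases. The Parp11 window lies at chr6:127446590-127446889 on the plus strand. Its capitals run from the start of the interferon-response match to the end of the GAS match. The Dtx3l window, at chr16:35938978-35939277 on the minus strand, is shown without capitals because neither core was found in it.
Parp11: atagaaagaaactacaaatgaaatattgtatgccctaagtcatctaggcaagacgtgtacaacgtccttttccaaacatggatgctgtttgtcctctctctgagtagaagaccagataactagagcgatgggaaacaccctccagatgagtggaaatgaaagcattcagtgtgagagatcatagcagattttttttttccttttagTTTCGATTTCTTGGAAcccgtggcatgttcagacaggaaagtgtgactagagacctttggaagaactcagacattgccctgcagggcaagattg
Dtx3l: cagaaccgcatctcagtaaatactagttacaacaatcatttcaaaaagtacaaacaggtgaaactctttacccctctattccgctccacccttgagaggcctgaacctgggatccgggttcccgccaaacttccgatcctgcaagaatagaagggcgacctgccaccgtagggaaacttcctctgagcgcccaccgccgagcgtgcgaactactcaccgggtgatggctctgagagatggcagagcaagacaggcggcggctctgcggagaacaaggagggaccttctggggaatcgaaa
A match in these letters is a description of the sequence and not a mapped binding site.

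Parp11 (ENSMUSG00000037997, chromosome 6), a mono-ADP-ribosyltransferase known to act on the interferon receptor pathway through a ubiquitin ligase, had 31.2, 22.6 and 24.4 CPM in the ATEV libraries, 12.9, 20.8 and 18.3 CPM in the DNase-ATEV libraries, 10.7, 18.7 and 15.4 CPM in the NTEV libraries and 9.95, 14.5 and 15.0 CPM in the PBS libraries. The ATEV libraries were above all others, and the other groups overlapped. Its difference from PBS, 0.99 ± 0.24 (adjusted p = 0.0357), was the largest after that of Parp14. The call was lost whichever ATEV or PBS library was left out, with adjusted p between 0.0584 and 0.152 and log2 fold changes between 0.84 and 1.09.

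Parp10 (ENSMUSG00000063268, chromosome 15), first described as a partner of Myc, had 36.4, 37.7 and 30.2 CPM with ATEV, 24.0, 25.5 and 25.1 CPM with DNase-ATEV, 26.2, 25.8 and 30.9 CPM with NTEV and 23.4, 22.1 and 20.5 CPM with PBS. All PBS libraries were below all libraries of the vesicle-treated groups, narrowly for DNase-ATEV (lowest 24.0 CPM against at most 23.4 CPM in PBS). Taken by group, 16.3% of all genes lay above PBS in this way with ATEV, 7.69% with DNase-ATEV and 12.8% with NTEV. The share for all vesicle-treated groups together was not computed. Neither DNase-ATEV nor NTEV was called against PBS for Parp10. ATEV exceeded PBS by 0.66 ± 0.13 (adjusted p = 0.0116), a call lost without ATEV replicate 2 (0.0653), PBS replicate 2 (0.0652) or PBS replicate 3 (0.0518). Parp10 shares 205 exonic bases with Plec on the same strand. Plec itself, which encodes the cytoskeletal linker plectin, had 209 to 352 CPM over the libraries. It was not called in that comparison (0.26 ± 0.16, adjusted p = 0.296). How reads within the shared bases were assigned is not known here, so their part in the Parp10 counts is uncertain.

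Parp12 (ENSMUSG00000038507, chromosome 6), a zinc-finger mono-ADP-ribosyltransferase of the Golgi and stress granules, had 47.6, 54.8 and 51.7 CPM with ATEV, 42.6, 36.1 and 33.6 CPM with DNase-ATEV, 42.4, 34.0 and 43.8 CPM with NTEV and 35.3, 31.1 and 34.0 CPM with PBS. The ATEV libraries stood above all others. Its log2 fold change against PBS was 0.62 ± 0.13 (adjusted p = 0.0212), and the call was lost without ATEV replicate 2 (0.0978), ATEV replicate 3 (0.0520), PBS replicate 2 (0.123) or PBS replicate 3 (0.0625).

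The DNA-damage members did not share that direction. Parp1 (ENSMUSG00000026496, chromosome 1), the main sensor of DNA strand breaks, had 287, 347 and 302 CPM in the ATEV libraries, 502, 370 and 341 CPM in the DNase-ATEV libraries, 507, 329 and 408 CPM in the NTEV libraries and 552, 504 and 467 CPM in the PBS libraries. All ATEV libraries were below all PBS libraries, whereas the DNase-ATEV and NTEV libraries overlapped both. Parp1 was lower in ATEV cells than in PBS cells, with a log2 fold change of -0.70 ± 0.18 (adjusted p = 0.0453, fold 0.615). The call was lost whichever ATEV or PBS library was left out, with adjusted p between 0.0684 and 0.162 and log2 fold changes between -0.79 and -0.62. Parp2 (ENSMUSG00000036023, chromosome 14), the paralogue that shares the role of Parp1 at breaks, had 66.8, 50.8 and 57.9 CPM in the ATEV libraries, 64.4, 65.5 and 74.5 CPM in the DNase-ATEV libraries, 60.0, 66.4 and 62.8 CPM in the NTEV libraries and 60.5, 67.5 and 68.0 CPM in the PBS libraries. All its groups overlapped. In ATEV against PBS its log2 fold change was -0.16, with a 95% interval of -0.42 to 0.10 (adjusted p = 0.409).

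**Figure D2:**
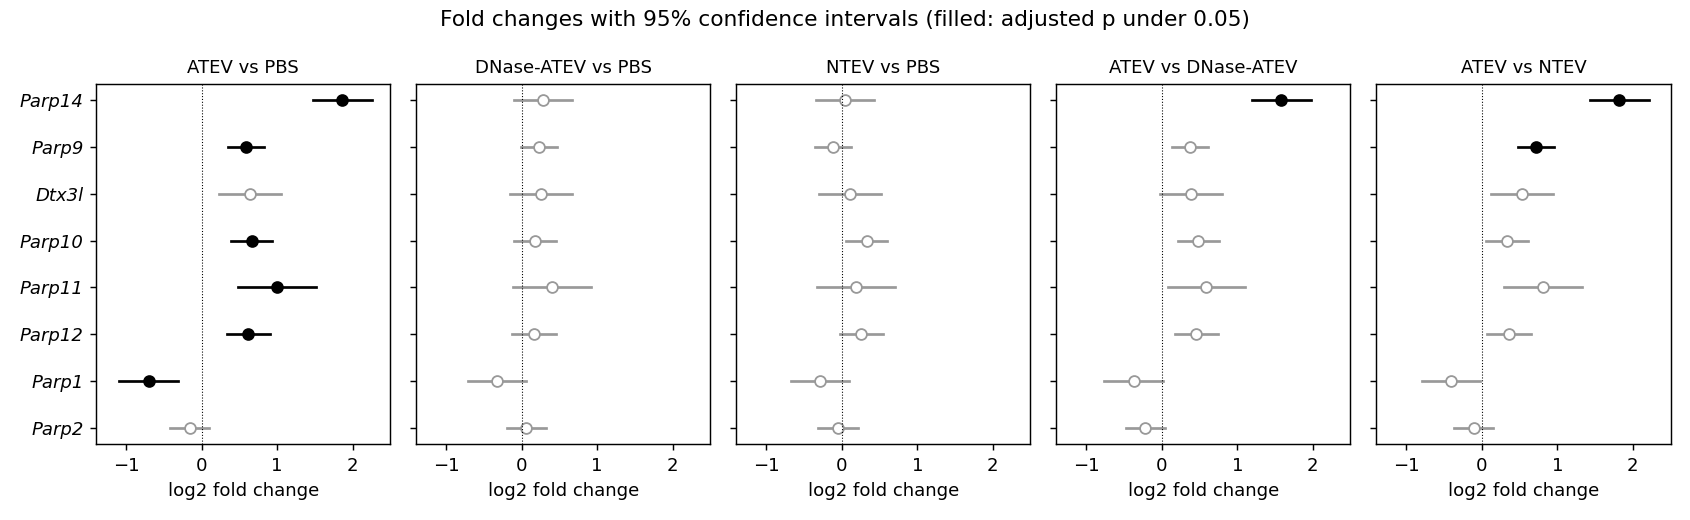
Log2 fold change of each member in the 5 comparisons (horizontal axis; points are edgeR estimates and bars 95% intervals, filled where the adjusted p was under 0.05). In ATEV against PBS the 6 interferon-linked members lie between 0.59 and 1.86, and Parp14 is also far from 0 against DNase-ATEV (1.58) and NTEV (1.82).

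Comparing DNase-ATEV with PBS asks what remains of the response once the vesicles have been exposed to DNase. None of the 8 members was called by edgeR, and 0% of all genes were called. At an unadjusted p under 0.05 the counts were 0 of 8 members and 791 genes, or 5.96%, and DESeq2 called 0 members and 37 genes. The members' log2 fold changes were 0.28 ± 0.18 for Parp14 (95% interval -0.11 to 0.66), 0.22 ± 0.11 for Parp9, 0.25 ± 0.19 for Dtx3l, 0.18 ± 0.13 for Parp10, 0.40 ± 0.24 for Parp11 and 0.16 ± 0.13 for Parp12. All 6 estimates were above 0, with a median of 0.24 against 0.0030 over all genes. For Parp9 and Parp10 every DNase-ATEV library was above every PBS library, as for 7.69% of all genes. Parp1 differed by -0.33 ± 0.18 and Parp2 by 0.061 ± 0.12. The intervals of all 8 members included 0, which does not show that the groups were alike.

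The direct comparison of ATEV with DNase-ATEV sets vesicles without the DNase pretreatment against vesicles with it. No group received DNase alone or mock-pretreated vesicles, so digestion of DNA and other effects of that step cannot be told apart. Parp14 was the only member called, at 1.58 ± 0.18 or 3.00-fold (adjusted p = 0.000525), in a comparison where 1.46% of all genes were called and 1.32% were called higher. Its call was kept in all 6 fits that left out an ATEV or DNase-ATEV library. The other interferon-linked members had log2 fold changes of 0.59 ± 0.24 for Parp11, 0.48 ± 0.13 for Parp10, 0.46 ± 0.13 for Parp12, 0.38 ± 0.19 for Dtx3l and 0.37 ± 0.11 for Parp9, with adjusted p between 0.0938 and 0.361. For 5 of the 6, Dtx3l being the exception, every ATEV library was above every DNase-ATEV library, as for 10.1% of all genes. DESeq2 called Parp9 (adjusted p = 0.0334) and Parp10 (0.0160) beside Parp14. Parp1 differed by -0.37 ± 0.18 and Parp2 by -0.22 ± 0.12, neither called (adjusted p = 0.350 and 0.403).

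NTEV is the vesicle preparation given at the higher vesicle dose. Against PBS, no member was called by edgeR, DESeq2 or limma-voom, while 2.31% of all genes were called. Parp10 was the only member under an unadjusted p of 0.05, as were 19.1% of all genes, at 0.33 ± 0.13 (adjusted p = 0.185), and its NTEV libraries were all above its PBS libraries, as for 12.8% of all genes. Parp14 differed by 0.041 ± 0.18, with a 95% interval of -0.35 to 0.43. Parp9, the only interferon-linked member with a negative estimate, differed by -0.12 ± 0.11. The remaining estimates were 0.26 for Parp12, 0.19 for Parp11, 0.11 for Dtx3l, -0.051 for Parp2 and -0.29 for Parp1.

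Set directly against NTEV, ATEV gave higher Parp14 at 1.82 ± 0.18 (adjusted p = 0.000121) and higher Parp9 at 0.71 ± 0.11 (adjusted p = 0.00503), in a comparison that called 0.935% of all genes and 0.875% higher. Both calls were kept whichever ATEV or NTEV library was left out, but Parp9 was lost in a fit of those groups alone (adjusted p = 0.0660). Parp11 at 0.81 ± 0.24 (0.178), Dtx3l at 0.53 ± 0.19 (0.265), Parp12 at 0.36 ± 0.13 (0.275) and Parp10 at 0.33 ± 0.13 (0.288) were not called. Parp11 did pass with DESeq2 (adjusted p = 0.0496) and without the filter on low counts (0.0386). ATEV libraries were above all NTEV libraries for every interferon-linked member except Parp10, as for 8.61% of all genes. Parp1 differed by -0.41 ± 0.18 (0.351) and Parp2 by -0.11 ± 0.12 (0.720). The comparisons share libraries, ATEV or PBS, so their values are set side by side and not counted as separate support.

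**Figure D3:**
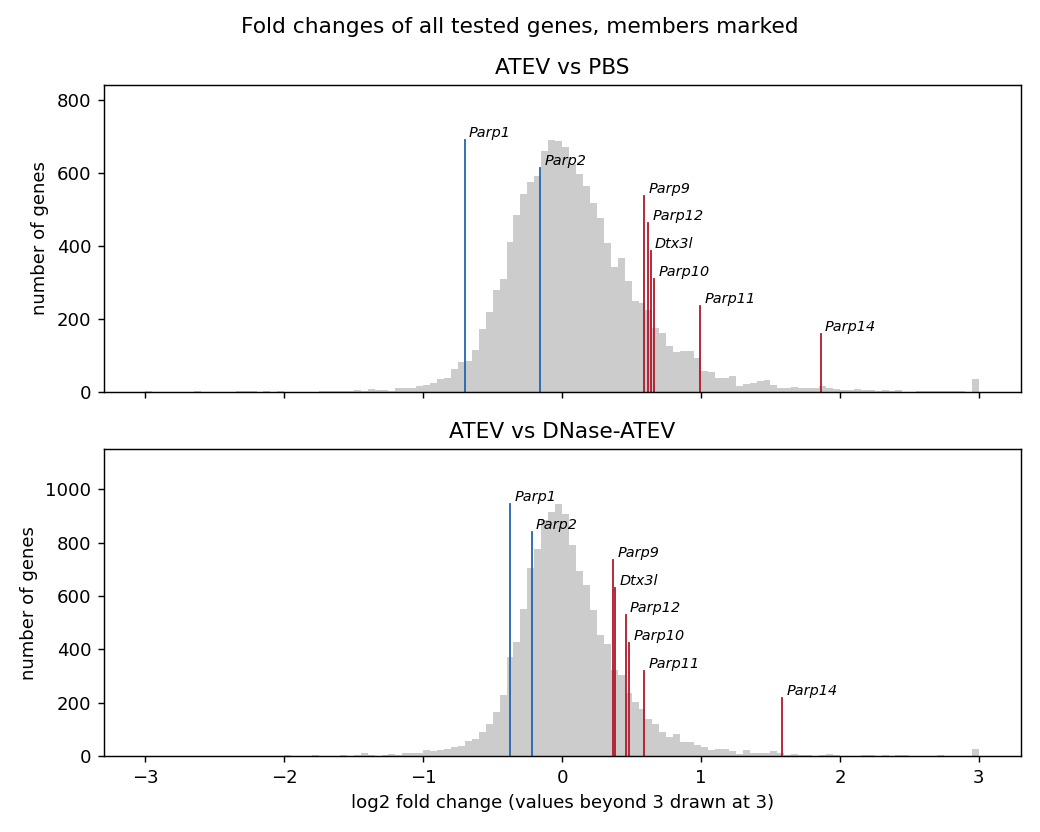
Distribution of log2 fold changes over all 13261 genes (horizontal axis; values beyond 3 are drawn at 3) as numbers of genes, in ATEV against PBS (top) and ATEV against DNase-ATEV (bottom), with lines at the 8 members whose heights carry no value. The interferon-linked members lie above the median of all genes in ATEV against PBS, where Parp14 is at the 98.9th percentile and Parp1 at the 2.83rd.

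Libraries within a group varied in a pattern that several members shared. Deviations from the group mean were also correlated over all genes tested. PBS replicate 1 gave 0.52 with NTEV replicate 1 and 0.44 with DNase-ATEV replicate 1, and those gave 0.62 with each other. ATEV replicate 1 gave -0.16 with PBS replicate 1, -0.32 with NTEV replicate 1 and -0.38 with DNase-ATEV replicate 1. The pattern was thus not particular to the members named here. Replicate 1 of the DNase-ATEV, NTEV and PBS groups had the lowest Dtx3l and the lowest Parp11 of its group, and the highest Parp1. Among the ATEV libraries, replicate 1 had the highest Dtx3l and Parp11 and the lowest Parp1. The 2 members whose calls against PBS were lost in every fit with a library left out, Parp11 and Parp1, were among these 3. Their coefficients of variation in NTEV cells were 26.8% and 21.6%, and Parp9 had 9.77% there.

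Per kilobase of exon, Parp1 was the most abundant member in every group, at 59.0 ± 5.92 CPM per kb in ATEV cells, 76.4 ± 16.3 in DNase-ATEV cells, 78.3 ± 16.9 in NTEV cells and 95.9 ± 8.04 in PBS cells (SD, n = 3). Parp2 followed at 16.1 ± 2.21 CPM per kb in ATEV cells and 18.0 in PBS cells. Among the interferon-linked members, Parp12 had the highest level per kb in ATEV cells, 12.9 ± 0.91, and in PBS cells, 8.38 ± 0.54. Parp14 was the lowest member in PBS cells at 1.13 ± 0.17 CPM per kb and exceeded Parp11 in ATEV cells, at 4.10 ± 0.70 against 3.71 ± 0.64 for Parp11, values whose spreads overlap. Summed over the 6, the level per kb was 49.8 ± 2.95 in ATEV cells, 35.2 ± 1.83 in DNase-ATEV cells, 33.4 ± 2.08 in NTEV cells and 30.3 ± 1.32 in PBS cells. For 6 members, Parp9, Dtx3l, Parp14, Parp10, Parp11 and Parp12, ATEV had the highest mean. The lower groups came in no common order, and most neighbouring groups in these orders overlapped. The exceptions below ATEV were Parp9, with DNase-ATEV above PBS, and Parp10, with NTEV above DNase-ATEV and DNase-ATEV above PBS. All DNase-ATEV libraries lay above all PBS libraries for 7.69% of all genes. For Parp10 the lowest NTEV library had 25.8 CPM and the highest DNase-ATEV library 25.5 CPM, and those groups were not compared by a test. Parp1 had the opposite order, lowest with ATEV, then DNase-ATEV, NTEV and PBS, and for Parp1 and Parp2 all neighbouring groups in the order overlapped.

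**Figure D4:**
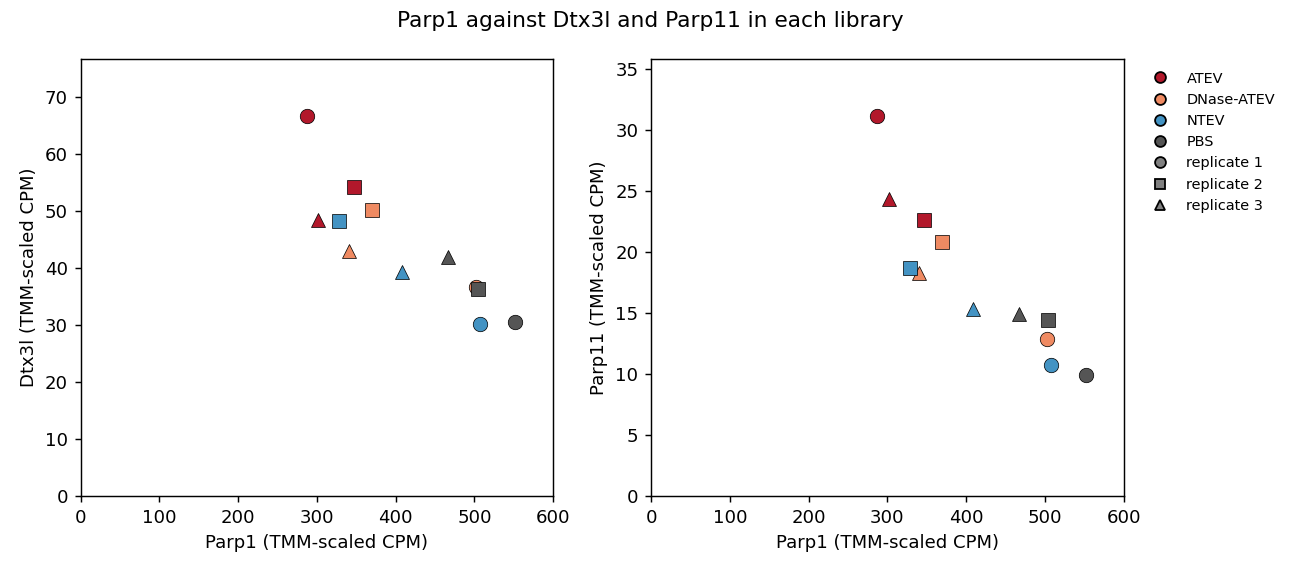
Level of Dtx3l (left) and Parp11 (right) against that of Parp1 in each of the 12 libraries (TMM-scaled CPM on both axes), with groups by colour and replicates by symbol. ATEV replicate 1 stands at the upper left of both panels (Parp1 287 CPM, Dtx3l 66.7 CPM, Parp11 31.2 CPM) and PBS replicate 1 at the lower right (Parp1 552 CPM, Dtx3l 30.6 CPM, Parp11 9.95 CPM).

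The genes around these members in the same chemistry were compared by lists. Of 14 other ADP-ribosyltransferases, 9 were tested, and in ATEV against PBS only Parp3 was called higher and none lower, with a median log2 fold change of -0.0033 over the list. Parp3, an enzyme of DNA break repair, had 74.7, 77.4 and 77.2 CPM in the ATEV libraries, 47.6, 46.3 and 51.4 CPM in the DNase-ATEV libraries, 55.4, 48.0 and 63.3 CPM in the NTEV libraries and 44.2, 40.8 and 40.6 CPM in the PBS libraries. The ATEV libraries were above all others. Parp3 was higher by 0.87 ± 0.12 against PBS (adjusted p = 0.000921) and by 0.66 ± 0.12 against DNase-ATEV (adjusted p = 0.00986). The second call was lost without ATEV replicate 2 or DNase-ATEV replicate 2 (largest adjusted p = 0.0727). Tiparp, a target of the aryl hydrocarbon receptor, differed by -0.10 ± 0.19 (adjusted p = 0.779). Zc3hav1, the zinc-finger antiviral protein, which is interferon-induced in many cells, differed by 0.23 ± 0.25 (adjusted p = 0.559).

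Of 13 ADP-ribose hydrolases and readers, which remove or bind the modification, 11 were tested and none was called in ATEV against PBS (median -0.14). The other Deltex ligases, 3 of 4 tested, had no call there either (median -0.12). Dtx4 was lower in ATEV than in NTEV cells, at -0.56 ± 0.11 (adjusted p = 0.0238), a call lost in each fit without ATEV replicate 2 or 3 or NTEV replicate 1, 2 or 3 (adjusted p up to 0.108). Among 13 tested genes of NAD supply and use, of 19 listed, Bst1, which encodes a NAD-consuming ectoenzyme, was the only call against PBS at 2.05 ± 0.23 (adjusted p = 0.000275, list median 0.29). Bst1 averaged 14.3 ± 3.24 CPM with ATEV, 3.98 ± 0.24 CPM with DNase-ATEV, 7.11 ± 1.49 CPM with NTEV and 3.43 ± 0.53 CPM with PBS. It was also called in NTEV against PBS, at 2.07-fold (adjusted p = 0.0324). That call was lost without PBS replicate 1, 2 or 3 or NTEV replicate 2 or 3, with adjusted p up to 0.143.

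Genes of interferon signalling, 16 of 16 tested, held 5 called higher and 0 lower in ATEV against PBS, with a median of 0.37. Irf1, an interferon-induced transcription factor, was higher by 2.83 ± 0.37 (adjusted p = 0.000786), and Irf7, which drives type I interferon genes, by 2.08 ± 0.26 (adjusted p = 0.000561). The other calls were Irf9 at 1.45 ± 0.23, Stat2 at 1.25 ± 0.29 and Irf8 at 0.55 ± 0.13. Irf9 stayed called with any ATEV or PBS library left out, Stat2 was lost in 4 of those 6 fits (without ATEV replicate 2 or 3 or PBS replicate 1 or 2, adjusted p up to 0.126) and Irf8 in 5 (all but that without ATEV replicate 1, adjusted p up to 0.176). Against DNase-ATEV, 3 of the 16 were called higher in ATEV cells, namely Irf1, Irf7 and Irf8, of which Irf8 was lost without ATEV replicate 3 or DNase-ATEV replicate 1 or 2 (adjusted p up to 0.105), and none of the 16 was called in DNase-ATEV against PBS. Repair genes that work with Parp1, 25 of 25 tested, held 0 called higher and 1 lower in ATEV against PBS, with a median of -0.18. The call was Xrcc6, the Ku subunit of end joining, at -0.51 ± 0.14 (adjusted p = 0.0496), and it was lost whichever ATEV or PBS library was left out.

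The genes whose log2 CPM across the 12 libraries ran most like the 6 interferon-linked members were Lgals3bp, Irgm2, Irgm1, Irf1 and Nlrc5. Their mean Pearson correlation with the 6 was 0.852 for Lgals3bp, 0.848 for Irgm2, 0.840 for Irgm1, 0.829 for Irf1 and 0.828 for Nlrc5, given as a description over libraries that share the group differences. Taken after subtracting each group's mean, the same correlations were 0.376, 0.220, 0.168, 0.204 and 0.103 in that order of genes. Irgm1 and Irgm2 encode interferon-inducible GTPases and Nlrc5 is a regulator of MHC class I genes.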

How the data were processed

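Raw read counts per gene, deposited by the authors in 1 table of 12 libraries, were used as given. The counts' counter and its strand setting are not given in the sources used here. Tools named in the submitters' processing notes were Cufflinks 2.1.1, TopHat2 2.0.11 and bcl2fastq 2.19, with the build mm9, and per the labels' protocols the libraries were stranded poly(A) libraries. Of 42687 identifiers, 42250 matched a symbol in GENCODE M21 (GRCm38), which was used for names, exon lengths and overlaps, and 437 did not match. RefSeq promoter windows are of GRCm38.p6.

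Genes were kept by filterByExpr (minimum count 10, minimum total 15). Counts were scaled by TMM and fitted with edgeR 4.0.16 in R 4.3.3 (glmQLFit, glmQLFTest) over all 12 libraries with 4 groups and no replicate block, with Benjamini-Hochberg adjustment over 13261 genes. The common biological coefficient of variation was 0.183. Intervals are 95%. Alternatives were DESeq2 1.42.0 (on all 23092 genes with a count, with its own filtering, so that tool and filter changed together), relative log expression scaling, no filter, limma-voom 3.58.1, the compared groups alone, a replicate block and leaving out each library. Libraries of a group differed beyond sampling noise (chi-square per degree of freedom at least 14.3), so none was a repeat deposit. Correlations used log2 CPM with a prior count of 2. 

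The members and gene lists were chosen with earlier results of these data known. Besides the 8 members, the genes named were, from each list, the called genes with the 3 smallest p-values in ATEV against PBS, plus Tiparp, Zc3hav1, Irf1 and Irf7, and the 5 genes most like the interferon-linked members. Dtx4, Stat2 and Irf8 were named after their values were seen. A gene of the interferon signalling list is not reported here and was left out of its counts.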

Additional observations from a re-analysis of the deposited data

How the results depend on the processing

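Under the 6 settings that kept all 12 libraries or the whole of both groups, 231 of the members' differences kept their direction and their side of the threshold, 8 passed it newly and 1 no longer passed. With 1 library left out, 213 did, 22 no longer passed and 5 changed sign. The number of members called in ATEV against PBS was 6 and ranged from 1 to 4 with a library left out. It stayed at 0 in DNase-ATEV and in NTEV against PBS, 1 in ATEV against DNase-ATEV and 2 in ATEV against NTEV with a library left out. DESeq2 called 3 members in ATEV against DNase-ATEV, and in ATEV against NTEV DESeq2 and the fit without the filter called 3, adding Parp11, while the compared groups alone gave 1. Counts over all genes moved more, and DESeq2 and the fit without the filter both tested 23092 genes in place of 13261. ATEV against PBS gave 628 genes, and 1516 with DESeq2, 1317 without the filter, 1244 from the groups alone, 1440 with a replicate block and 169 to 849 with a library left out. DNase-ATEV against PBS gave 0, and 37 with DESeq2, 47 without the filter, 1 with the block and 0 to 8 with a library left out. NTEV against PBS gave 306, and 826 with DESeq2, 876 without the filter, 19 from the groups alone and 34 to 1685. ATEV against DNase-ATEV gave 194, and 479 with DESeq2, 394 without the filter and 78 to 522. ATEV against NTEV gave 124, and 361 with DESeq2, 242 without the filter, 82 from the groups alone and 70 to 302. The cause was not tested. None of the 5 sign changes concerned a call: Parp2 in DNase-ATEV against PBS ranged from -0.0058 (without DNase-ATEV replicate 3) to 0.092, and in NTEV against PBS Parp14 ranged from -0.099 (without NTEV replicate 2; -0.089 without PBS replicate 2) to 0.14, Dtx3l from -0.080 (without NTEV replicate 2) to 0.28 and Parp11 from -0.023 (without NTEV replicate 2) to 0.39. Same-numbered libraries of compared groups correlated in their deviations between -0.38 and 0.52, over 0.1 in 3 of 15 pairs, and 6 of 30 library comparisons were closest to their own number, so the numbers were not taken as pairs in these comparisons (between DNase-ATEV and NTEV, not compared here, the same correlations were 0.13, 0.35 and 0.62) and the replicate block is only an alternative. Under the block, Dtx3l also passed in ATEV against PBS and the other members' calls were as reported.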

Other observations

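Taken per kilobase of exon, Parp1 was 14.7 ± 2.84 times Parp14 in ATEV cells, 55.6 ± 8.46 times in DNase-ATEV cells, 69.5 ± 21.1 times in NTEV cells and 86.5 ± 14.8 times in PBS cells (SD, n = 3). The ATEV libraries, at 11.5 to 17.1, did not overlap the PBS libraries, at 73.6 to 103. Parp14 made up 8.19% ± 0.94 of the summed level per kb of the 6 interferon-linked members in ATEV cells, 3.88% ± 0.36 in DNase-ATEV cells, 3.49% ± 0.65 in NTEV cells and 3.73% ± 0.59 in PBS cells. The ratio of Parp1 to that sum was 1.19 ± 0.13 in ATEV cells, 2.18 ± 0.52 in DNase-ATEV cells, 2.36 ± 0.61 in NTEV cells and 3.18 ± 0.39 in PBS cells. These ratios combine differences already given and were not tested.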
